A study of Rattus norvegicus with 30 samples.

Results

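The 10 genes Hamp, Tfrc, Tfr2, Tf, Slc40a1, Fth1, Ftl1, Hmox1, Bmp6 and Tmprss6 of hepcidin and liver iron handling were followed in the livers of 30 male Sprague-Dawley rats fed 6 diets. They were chosen by name, as the probe sets that the array annotation gives to these genes, and hepcidin (Hamp) was chosen because its level had been seen to differ between the diets. The annotation gave them 16 of the 31042 probe sets that are not array controls. Of the 10 genes, 6 had probe sets of their own (12 probe sets). A further 3 genes had shared probe sets only (4 probe sets): Fth1 with Fth1-ps5, Ftl1 with Ftl1-ps14, Ftl1l2 and 2 unnamed loci, and Tf with Srprb. A value from those 4 probe sets cannot be assigned to 1 gene. No probe set was named for Tmprss6, a protease that restrains hepcidin, and it was not analysed here. All 16 probe sets lay above the filter on dim signal.

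The animals were 4 weeks old when obtained, had 5 days of adaptation on a commercial diet and then 14 days on the test diet, with 5 rats and 1 array per rat in each group. Every diet held 200 g/kg of protein. Diet C held casein, CI casein with added isoflavones, S soy protein, and SI soy protein with added isoflavones. Diet T10 drew 100 g/kg of its protein from casein and 100 g/kg from freeze-dried tofu, and T20 drew 200 g/kg from freeze-dried tofu. The isoflavones of CI and SI were matched to T20, so T20 against SI sets tofu beside soy protein at one isoflavone level. Values are log2 of the normalized array intensity, and a probe set was called where limma gave an adjusted p under 0.05 over all 18625 probe sets tested. The sources used here do not state how much iron the diets held.

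Hepcidin is a peptide hormone made by hepatocytes. It binds ferroportin (Slc40a1), the iron exporter of macrophages, enterocytes and hepatocytes, and causes its degradation, so that less iron enters the blood. Hepatocytes raise Hamp transcription through BMP6 and SMAD signalling when iron is plentiful and through IL-6 and STAT3 in inflammation, while iron-poor cells stabilize the Tfrc mRNA through the iron regulatory proteins.

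The promoters of Hamp and Tfrc are shown because these 2 genes carried the largest differences among the iron genes. The windows are the 250 bases before the gene start, from RefSeq on build GRCr8, at chr1:95300272-95300521 for Hamp and chr11:81690319-81690568 for Tfrc, both on the minus strand. Capitals mark matches, on either strand, to the letters GGCGCC (the core of a BMP response element) or TTCNNNGAA (a STAT site).
Hamp: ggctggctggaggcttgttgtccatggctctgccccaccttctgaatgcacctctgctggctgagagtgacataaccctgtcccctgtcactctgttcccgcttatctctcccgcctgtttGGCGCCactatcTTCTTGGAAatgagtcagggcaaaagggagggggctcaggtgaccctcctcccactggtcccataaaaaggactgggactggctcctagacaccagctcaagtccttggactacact
Tfrc: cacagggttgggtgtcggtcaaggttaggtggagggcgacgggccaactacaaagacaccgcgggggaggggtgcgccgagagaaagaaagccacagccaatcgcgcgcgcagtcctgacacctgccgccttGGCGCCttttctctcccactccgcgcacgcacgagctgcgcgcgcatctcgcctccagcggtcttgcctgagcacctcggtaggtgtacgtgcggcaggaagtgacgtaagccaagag
The Hamp window held GGCGCC at -129 to -124 and TTCNNNGAA at -117 to -109 relative to the start. The Tfrc window held GGCGCC at -118 to -113. Of 27457 rat promoters of the same length, 9.24% held GGCGCC, 7.52% held TTCNNNGAA and 0.39% held both. Windows were also listed for Tfr2, Tf, Slc40a1 and Bmp6 (6 of the 10 genes in all), and none of these 4 held either motif. The E-box CACGTG, present in 5.79% of promoters, and TGACNNNGC, the core of an antioxidant response element, present in 10.17%, matched in none of the 6 windows.

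Over the whole array, array medians lay between 217.4 and 255.5 intensity units. Hepatocyte marker sums overlapped between all 6 diets, and no listed marker of hepatocytes, Kupffer cells, erythroid cells or endothelium was at 0 on all arrays. In the labels, identical normalization parameters are listed for the arrays C replicate 3 and CI replicate 3. Their values correlated at 0.9526, within the range of 0.9396 to 0.9714 for pairs from different diets. The 3 arrays T10 replicates 3 to 5 had GAPDH 3'/5' ratios of 1.325 to 1.58, against 0.97 to 1.249 on the other 27. Their beta-actin 3'/5' ratios, 2.351 to 2.433, lay inside the range of 1.841 to 2.89 on the other 27. The labels call the arrays of a diet biological replicates.

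By diet mean, Hamp mRNA was highest in rats fed soy protein and lowest in rats fed tofu. In C livers 1 to 5 its log2 level was 11.05, 8.10, 9.77, 11.36 and 10.12, and in CI livers it was 12.30, 12.32, 13.92, 14.04 and 8.42. The S livers read 14.79, 12.67, 14.63, 14.21 and 11.91, and the SI livers 9.35, 14.03, 13.28, 13.14 and 14.90. Most livers of the 3 diets CI, S and SI were thus above the C livers, but CI replicate 5 and SI replicate 1 were not. With tofu the level was low in each liver: 7.72, 7.73, 7.67, 8.41 and 7.57 in T10, and 7.72, 7.91, 7.41, 8.0 and 7.48 in T20. The tofu livers lay close to the filter level of 7.39, which is the 40th percentile of all probe sets, so Hamp there was a dim signal. T10 replicates 1 and 2, whose GAPDH ratios were in the common range, had the same low Hamp as the other T10 livers.

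**Figure D1:**
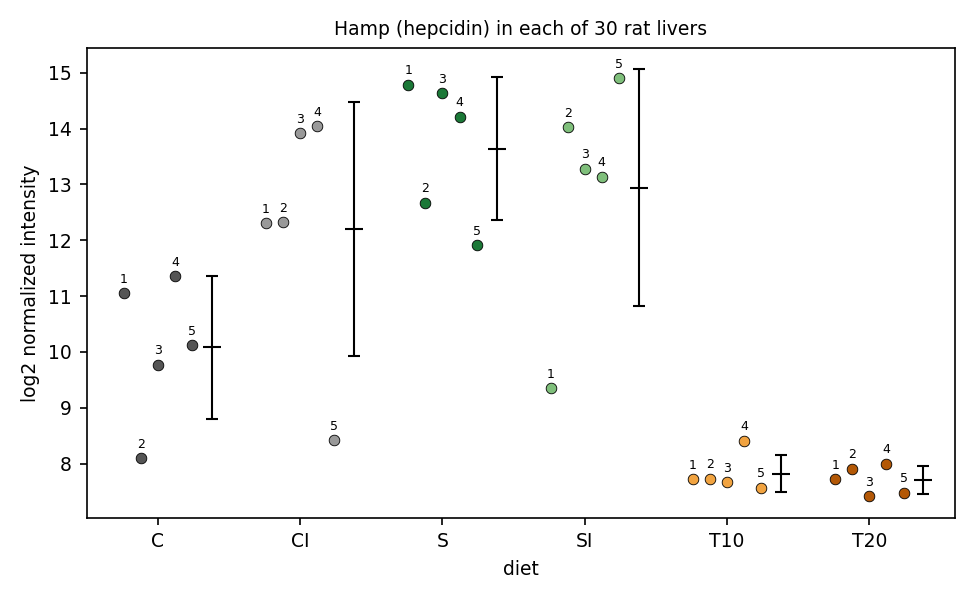
Log2 normalized intensity of Hamp (y axis) in each of the 30 livers, by diet (x axis); numbers are replicate numbers, and the bar beside each diet is the mean with 1 SD (n = 5). The tofu livers T10 and T20 sit between 7.41 and 8.41, and the S livers between 11.91 and 14.79.

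By mean log2 level the diets ranked S (13.64 ± 1.28, SD, n = 5), SI (12.94 ± 2.13), CI (12.20 ± 2.27), C (10.08 ± 1.29), T10 (7.82 ± 0.34) and T20 (7.70 ± 0.26). Each neighbouring pair in this order overlapped in range. The C livers did not overlap the S livers, as held for 7.5% of all probe sets tested, or the T20 livers (4.99%). S did not overlap T10 (5.46%) or T20 (3.86%), and SI did not overlap T10 (5.03%) or T20 (4.05%). CI did not overlap T20 (3.72%) and was apart from T10 (2.67%) by 8.42 in CI replicate 5 against 8.41 in T10 replicate 4. C replicate 2, at 8.10, lay inside the T10 range, and C and T10 did not overlap for 1.94% of probe sets. Since these values chose the gene, the differences are given without a test. Hamp was higher in S than in C by 3.56 ± 0.87 (log2, SE), an 11.8-fold difference, and higher in CI by 2.12 ± 0.87 and in SI by 2.86 ± 0.87. T10 minus C was -2.26 ± 0.87 (4.79-fold lower) and T20 minus C was -2.38 ± 0.87 (5.19-fold lower), differences that share the C livers. T20 was 37.6-fold below SI, at a log2 difference of -5.23 ± 0.87, or -6.13 without SI replicate 1. The tofu signal was not shown to be above background, so the folds against T10 and T20 may understate the difference in Hamp mRNA. Soy protein averaged over both isoflavone levels stood 2.15 ± 0.61 above casein. That average joins S minus C, at 3.56 ± 0.87, and SI minus CI, at 0.74 ± 0.87 with overlapping livers. Isoflavone stood 0.71 ± 0.61 above none, and the isoflavone difference with soy protein minus that with casein was -2.82 ± 1.23.

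Hamp also varied more between rats of 1 diet than nearly all other transcripts. Its SD exceeded that of most probe sets in the 4 diets without tofu: 2 of the 18625 tested had a larger SD in CI, 8 in SI, 50 in S and 56 in C. In T10 3088 probe sets had a larger SD, and in T20 6794. The median SD over all probe sets was 0.18 to 0.21 in each diet. The summed intensity of 8 sinusoidal endothelial markers, cells that make BMP ligands, was 15636 to 17076 in T10 and 15654 to 18277 in T20. It was 14431 to 15517 in C and 13428 to 14589 in SI, apart from both tofu diets, but 12909 to 15981 in CI and 13595 to 16363 in S, the diet of highest Hamp, which overlapped them. Its part in the Hamp difference was not tested. In bulk liver, fewer cells of a type and less RNA per cell cannot be told apart.

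Tfrc, transferrin receptor 1, which imports transferrin-bound iron, was the iron gene whose pattern was most opposite to Hamp. On the brighter of its 2 probe sets the C livers read 13.29, 12.94, 12.68, 11.35 and 11.47, and the CI livers 11.83, 11.62, 11.15, 11.47 and 11.99. S livers read 11.20, 10.54, 10.44, 10.81 and 11.57, and SI livers 13.30, 11.07, 11.39, 11.30 and 10.05. S had the lowest mean, and SI replicate 1, the SI liver of lowest Hamp, was the highest of these 20 livers. With tofu the T10 livers were at 13.33, 13.56, 13.99, 11.81 and 11.90, and the T20 livers at 14.05, 13.74, 13.52, 12.16 and 11.31. S and T10 were the sole pair of diets whose livers did not overlap (5.46% of all probe sets), and in C, T10 and T20 the livers numbered 4 and 5 were the lower ones.

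Tfrc differed over the 6 diets on both of its probe sets (limma F test, adjusted p = 0.0232 for the brighter and 0.0176 for the dimmer), and it stayed called when any of the 30 arrays was left out (adjusted p up to 0.0475 and 0.0387). Among the 15 iron probe sets other than Hamp, 4 were called in this test, against 12.9% of all probe sets tested. The other 2 were the shared Fth1 probe set (adjusted p = 0.0131) and the shared Ftl1 probe set (0.0296). The Fth1 call was lost with quantile normalization (0.28) and equal median and spread (0.184), and without the filter. The Ftl1 call was lost without SI replicate 1, 2 or 5 (up to 0.0874), with equal median and spread (0.409) and without the filter. None of the 6 contrasts tested passed for Tfrc on either probe set in the main fit, and S against T10 was not among them. On the brighter, soy protein minus casein was -0.81 ± 0.37 (adjusted p = 0.129), T10 minus C 0.57 ± 0.53 (0.768), T20 minus C 0.61 ± 0.53 (0.553) and T20 minus SI 1.53 ± 0.53 (0.0992). Without SI replicate 1 the first was -1.05 (adjusted p = 0.0323) and the last 2.00 (0.0312), and without T20 replicate 5 the last was 1.95 (0.035). With the replicate numbers as a block, T20 minus SI passed on both probe sets, and soy protein minus casein on the dimmer. By isoflavone level, the brighter gave -1.44 ± 0.53 for S minus C and -0.19 ± 0.53 for SI minus CI, each with overlapping livers and without a test.

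**Figure D2:**
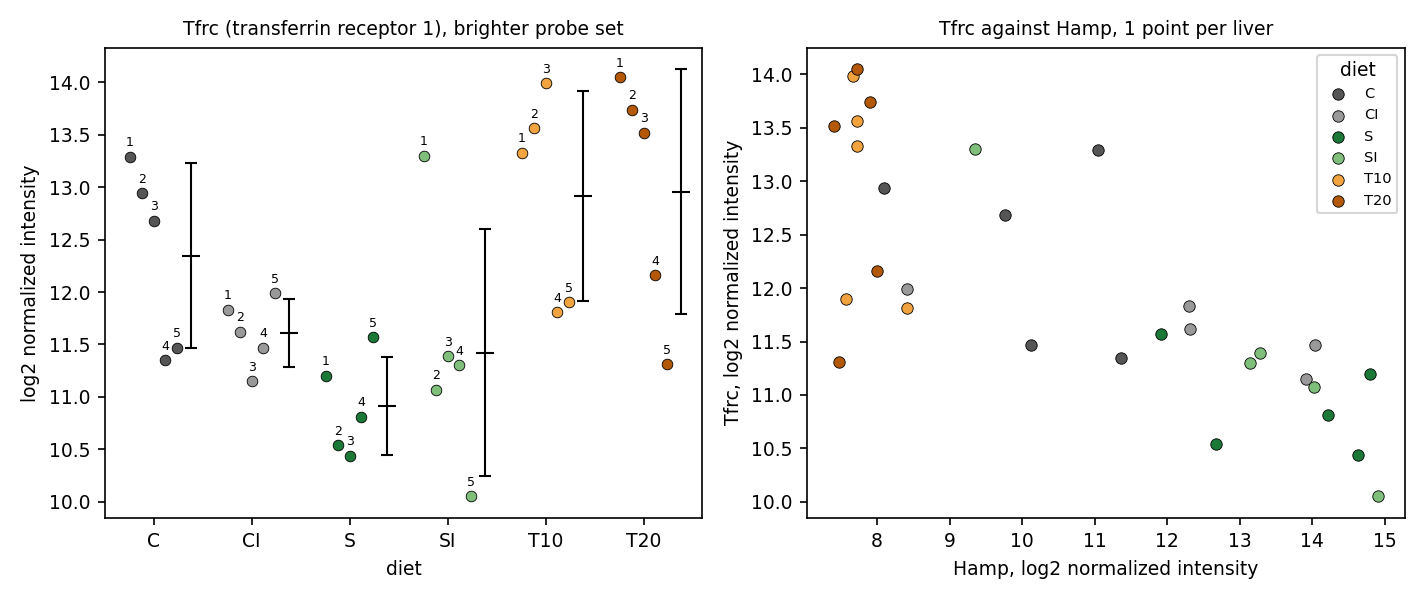
Left, log2 normalized intensity of the brighter Tfrc probe set in each liver by diet, with replicate numbers and the mean with 1 SD (n = 5). Right, Tfrc (y axis) against Hamp (x axis), both log2, 1 point per liver and coloured by diet. Tfrc lies at 11.57 or less in each S liver and at 11.81 or more in each T10 liver.

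Across the 30 livers, Tfrc ranked 4th from the lowest of 10698 genes by correlation with Hamp (Pearson r = -0.768, Spearman rho = -0.795), and r was -0.740 without SI replicate 5 and S replicate 1, the livers farthest from the median Hamp. This is a description: the livers share 6 diets, and the diet means carry part of it. Lower still were Tmed8, a gene of the secretory pathway (-0.815), Oat, ornithine aminotransferase (-0.810), and Cyp2d4, a cytochrome P450 (-0.796). The most similar profile was that of Ccnd1, cyclin D1 (r = 0.882, rho = 0.893), followed by Mocos (0.772), Coa3 (0.747), Hnrnpa1 (0.736), Lepr, the leptin receptor (0.736), Dkc1 (0.731), Vnn1 (0.731) and Tmem79 (0.730). The other iron genes with probe sets of their own had weaker values, from -0.25 for Tfr2 to 0.08 for Hmox1. The shared probe sets of Fth1, Ftl1 and Tf were not ranked, so their likeness to Hamp is not given.

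Within diets, where each gene's and Hamp's deviations from their diet means were compared, no gene's association with Hamp passed. Of 18624 probe sets, 0 (0%) were called by limma, while 560 had an unadjusted p under 0.05, and 0 of the 15 iron probe sets were called. The smallest p-values were those of Drg1 (slope 0.19 ± 0.04 log2 per log2 of Hamp), Ccnd1 (0.13 ± 0.03) and Fgf20 (-0.32 ± 0.08), each with an adjusted p of 0.9997. In SI replicate 1, at -3.59 from its diet mean for Hamp, Drg1 was 7.95, against 9.88 to 10.11 in the other SI livers. For Tfrc the slope was -0.29 ± 0.10 (adjusted p = 0.9997), and the deviations of Tfrc and Hamp had opposite signs in 21 of 30 livers. The dimmest Bmp6 probe set, with a slope of -0.02 ± 0.04, had opposite signs in 20. SI replicate 1, which was far from its diet mean for Hamp, also had the highest Tfrc of the SI livers.

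Among the remaining iron genes, 6 of the 15 probe sets were called between soy protein and casein, 5 higher and 1 lower, against 20% of all probe sets tested, of which 8.25% were higher and 11.8% lower. Of the 6, 2 belong to 1 gene alone, both of them Slc40a1, and 4 are shared. The median difference of the 15 was 0.09, against -0.03 over all probe sets. Direction counts over the array moved with scaling: 1537 higher and 2197 lower here became 2080 and 1594 with quantile normalization, 2257 and 1143 with median centring, and 1837 and 1355 with equal median and spread.

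Slc40a1 (ferroportin) was slightly higher with soy protein. On the brightest of its 3 probe sets the C livers read 12.16, 12.01, 12.28, 12.13 and 12.00 and the CI livers 12.01, 12.09, 11.67, 11.74 and 12.09. The S livers read 12.46, 12.04, 12.50, 12.24 and 12.24 and the SI livers 12.42, 12.34, 12.08, 12.04 and 12.26, so the diets overlapped. The difference was 0.25 ± 0.08 (adjusted p = 0.0208), and 0.23 ± 0.07 on the second (0.0127). The third and dimmest probe set gave 0.09 ± 0.10 (0.564), and on it livers 1 and 2 were the highest pair in each of the 6 diets. Both calls held in each alternative run on them. Tofu differences were small: T10 minus C was 0.03 ± 0.11 and T20 minus C was 0.00 ± 0.11 on the brightest probe set.

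The ferritin probe sets, whose proteins store iron, rose with soy protein averaged over both isoflavone levels. The shared Fth1 probe set rose by 0.22 ± 0.05 (adjusted p = 0.00101), with each SI liver at 15.77 or more and each CI liver at 15.69 or less, which do not overlap, as held for 10.1% of all probe sets. With quantile normalization the rise was 0.12. By isoflavone level, the Fth1 difference was 0.12 ± 0.06 for S minus C, with overlapping livers, and 0.32 ± 0.06 for SI minus CI. For the shared Ftl1 probe set, S minus C was 0.07 ± 0.11, with overlapping livers, and SI minus CI was 0.39 ± 0.11. The shared Ftl1 probe set rose by 0.23 ± 0.07 (0.027), and it was the sole iron probe set called between T20 and SI, where 3.51% of all probe sets were: SI livers read 15.23, 15.39, 15.01, 15.10 and 15.22 against 14.79, 14.65, 14.77, 14.66 and 14.87 in T20, a difference of -0.44 ± 0.11 (0.0174). With arrays set to equal median and spread these 3 calls were lost (adjusted p 0.165, 0.153 and 0.389). The Ftl1 call between soy protein and casein was also lost without CI replicate 5 or SI replicate 2 (up to 0.0568), and the call between T20 and SI was lost without SI replicate 2 (0.0717). The 2 probe sets shared by Tf, the plasma iron carrier, and Srprb went opposite ways, 0.15 ± 0.05 (adjusted p = 0.0478) and -0.32 ± 0.11 (0.0468), and the first was 0.02 with quantile normalization (0.643). Each of those calls was lost when any 1 of 19 arrays was left out (up to 0.1 and 0.103).

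**Figure D3:**
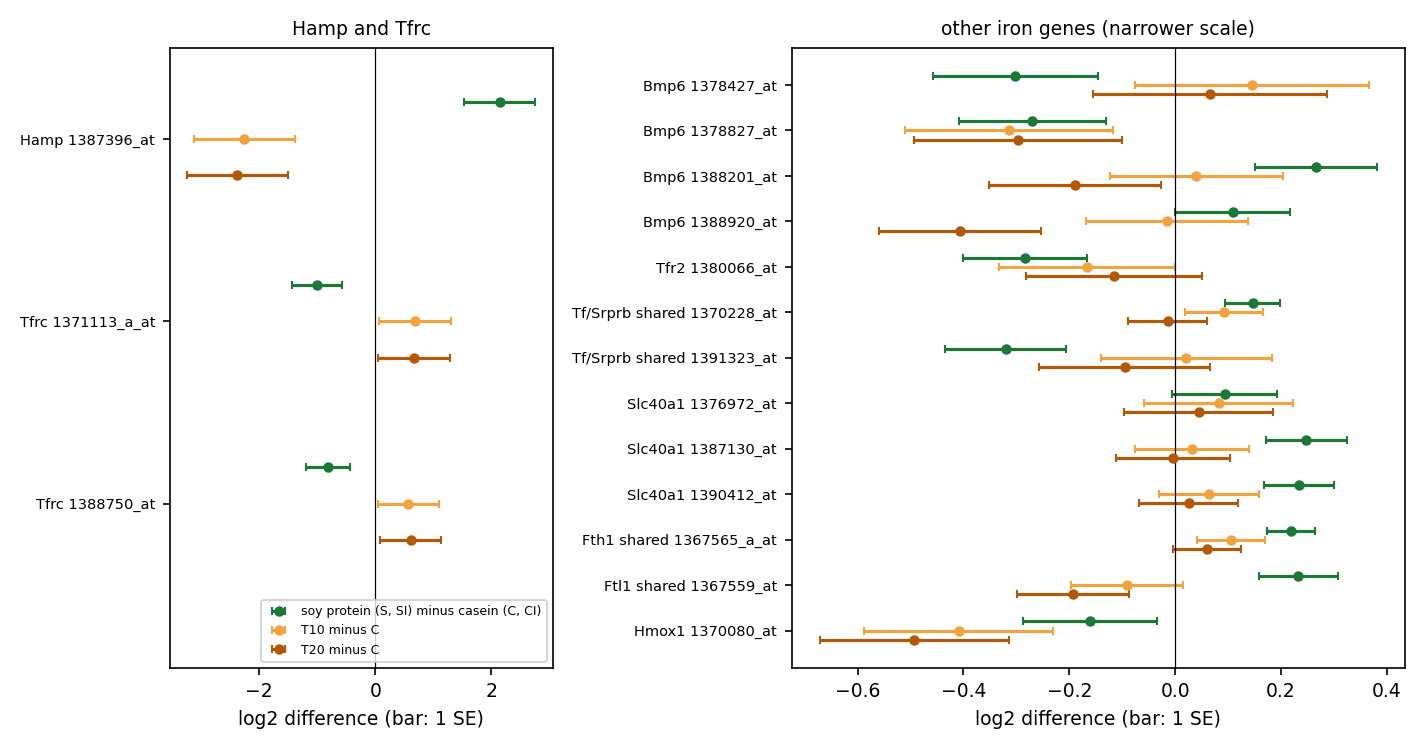
Log2 difference with 1 SE (x axis) for each iron probe set (y axis) in soy protein minus casein, T10 minus C and T20 minus C; the right panel has a narrower scale, and Hamp carries no test. Hamp lies at 2.15 for soy protein and at -2.26 and -2.38 for the tofu diets, while the probe sets other than Hamp and Tfrc stay within 0.50 of 0.

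Among the listed genes of sensing, induction and heme breakdown, none passed in the contrasts tested. Tfr2, transferrin receptor 2, an iron sensor of hepatocytes, was -0.28 ± 0.12 with soy protein (adjusted p = 0.0896), and this passed without S replicate 3 (0.0171). Bmp6, the iron-induced ligand of the hepcidin pathway, made mostly by endothelium, had 4 probe sets that disagreed. From the brightest to the dimmest they gave -0.27 ± 0.14, -0.30 ± 0.16, 0.11 ± 0.11 and 0.27 ± 0.12, with adjusted p from 0.105 to 0.535. The dimmest passed without S replicate 1 (0.0459) and the brightest without SI replicate 3 (0.0371). Hmox1, heme oxygenase 1, which frees iron from heme, was at 9.97 to 10.02 in T20 livers 1 to 4 and at 10.66 in the fifth, against 11.37, 10.73, 10.33, 10.47 and 10.23 in C. The difference of -0.49 ± 0.18 did not pass (adjusted p = 0.107) but did without T20 replicate 5 (-0.62, 0.0365). It was not particular to T20. Hmox1 was also below C in CI (-0.37 ± 0.18), S (-0.42 ± 0.18), SI (-0.28 ± 0.18) and T10 (-0.41 ± 0.18), differences that share the C livers.

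In the comparisons of tofu with C, 0 of the 15 iron probe sets were called in T10 (0.322% of all probe sets; 1 with an unadjusted p under 0.05) and 0 in T20 (4.5%; 2 unadjusted). Isoflavone added or not called 0 of the 15 (0% of all; 1 unadjusted) and the isoflavone effect by protein 0 (0.0161% of all; 3 unadjusted). Over all 18625 probe sets, 1845 had an unadjusted p under 0.05 in T10 and 3800 in T20. For isoflavone the number was 574, and for its effect by protein 1716. Median differences of the 15 were 0.04 in T10, -0.01 in T20, -0.07 for isoflavone and 0.13 for its effect by protein, against -0.03, -0.01, 0.00 and 0.02 over all probe sets.

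The wider list of hepcidin regulators held 20 tested genes, of which 2 changed between soy protein and casein: Hfe rose and Smad5 fell. That is below the 20% called over all probe sets. Hfe, the HLA-like protein that works with Tfr2 in iron sensing, read 10.46 to 10.87 in C, 10.51 to 10.69 in CI, 10.97 to 11.18 in S and 10.97 to 11.34 in SI. The casein and soy protein livers did not overlap, as held for 1.95% of all probe sets, and Hfe was higher by 0.47 ± 0.05 (adjusted p = 5.6e-07). In T10 it read 10.73 to 10.87 and in T20 10.79 to 11.06, which is 0.30 ± 0.08 above C (0.0232; 1.76% of all probe sets were higher in T20 than in C and 2.74% lower). Bmpr2, a BMP receptor, and Smad5 were lower there, by log2 differences of -0.53 ± 0.13 (0.0211) and -0.26 ± 0.07 (0.0336), calls lost without any 1 of 3 and 5 arrays (up to 0.0735 and 0.114). The T20 call of Hfe was lost without C replicate 1 or 5 or without T20 replicate 1, 2 or 4 (up to 0.0719). Smad5, a signal carrier of the BMP pathway, fell by 0.16 ± 0.05 (0.0231) and was lost under 3 scalings (0.118 to 0.302). Hjv, hemojuvelin, the BMP co-receptor, was 0.00 ± 0.12 (0.995), Creb3l3 -0.07 ± 0.09 (0.651) and Il6r 0.40 ± 0.27 (0.338).

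Of 8 BMP and SMAD target genes, 3 rose and 0 fell with soy protein. The inhibitory Smad7 rose by 0.43 ± 0.11 (adjusted p = 0.00699), the pseudoreceptor Bambi by 0.45 ± 0.12 (0.00916) and Id4 by 0.40 ± 0.12 (0.0236). Id1, the usual BMP target in hepatocytes, was -0.03 ± 0.06 (0.791). The Id4 call was lost without CI replicate 5 or SI replicate 5 (up to 0.054). The list's median difference was 0.24, against -0.03 over all probe sets, and 8.25% of all probe sets rose. The part of this list in the Hamp differences between diets was not tested. In T20, where Hamp was lowest, the list's median difference from C was also above 0, at 0.26 against -0.01 over all probe sets. There Id4 was called, at 0.64 ± 0.18 (0.0369; 1.76% of all probe sets were higher), and lost without any 1 of 5 arrays (up to 0.124).

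Of 20 IL-6 and STAT3 acute phase genes, 4 changed with soy protein, 3 up and 1 down, with a median of 0.03. That share equals the 20% of all probe sets called. A2m, the acute phase protease inhibitor alpha-2-macroglobulin, read 7.82 to 9.57 in C, 11.73 to 13.12 in S and 11.41 to 12.70 in SI, a rise of 3.44 ± 0.26 (adjusted p = 3.79e-10). T20 minus C was 1.62 ± 0.37 (0.0109), where Hamp gave -2.38, and T20 minus SI was -1.87 ± 0.37 (0.00568). The part of the acute phase genes in the Hamp differences was not tested. Orm1, orosomucoid, rose by 0.96 ± 0.11 (6.05e-07) and Serpina3n by 0.21 ± 0.07 (0.024; lost without CI replicate 2, 0.0524). Socs3, a direct STAT3 target, was 0.00 ± 0.11 (0.99). In T20 the same list had 4 genes higher than C and 0 lower, against 1.76% and 2.74% of all probe sets. They were A2m, Orm1 (0.73 ± 0.16), Cd14, the endotoxin co-receptor (0.73 ± 0.21), and Steap4, a metalloreductase (0.34 ± 0.10). The Cd14 and Steap4 calls were lost without any 1 of 7 and 9 arrays. In T10 only Cd14 of the list was called (1.21 ± 0.21, adjusted p = 0.00367), where 0.322% of all probe sets were. The call was lost without T10 replicates 3 to 5 (0.183).

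The mRNAs of the iron regulatory proteins were lower with soy protein. Ireb2 and Aco1 encode the 2 proteins that bind iron-responsive elements when iron is scarce. Their mRNAs fell by 0.58 ± 0.12 (adjusted p = 0.00123) and 0.44 ± 0.10 (0.002), and protein was not measured. Ireb2 was 9.24 to 9.79 in C, 9.24 to 9.63 in CI, 8.29 to 9.19 in S and 8.70 to 9.14 in SI, with no overlap between casein and soy protein livers (1.95% of all probe sets). Aco1 was 11.90 to 12.36 in C, 11.77 to 12.14 in CI, 11.18 to 11.75 in S and 11.28 to 11.99 in SI, which overlap. Of the 9 tested genes of iron-responsive element control, 4 changed with soy protein, where 20% of all probe sets were called (8.25% higher, 11.8% lower). Ireb2 and Aco1 fell, and Slc40a1 and Slc11a2, the endosomal iron transporter (0.18 ± 0.06, adjusted p = 0.0206), rose. In T20 Ireb2 was -0.44 ± 0.17 against C (0.136) and Aco1 -0.28 ± 0.14 (0.251).

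**Figure D4:**
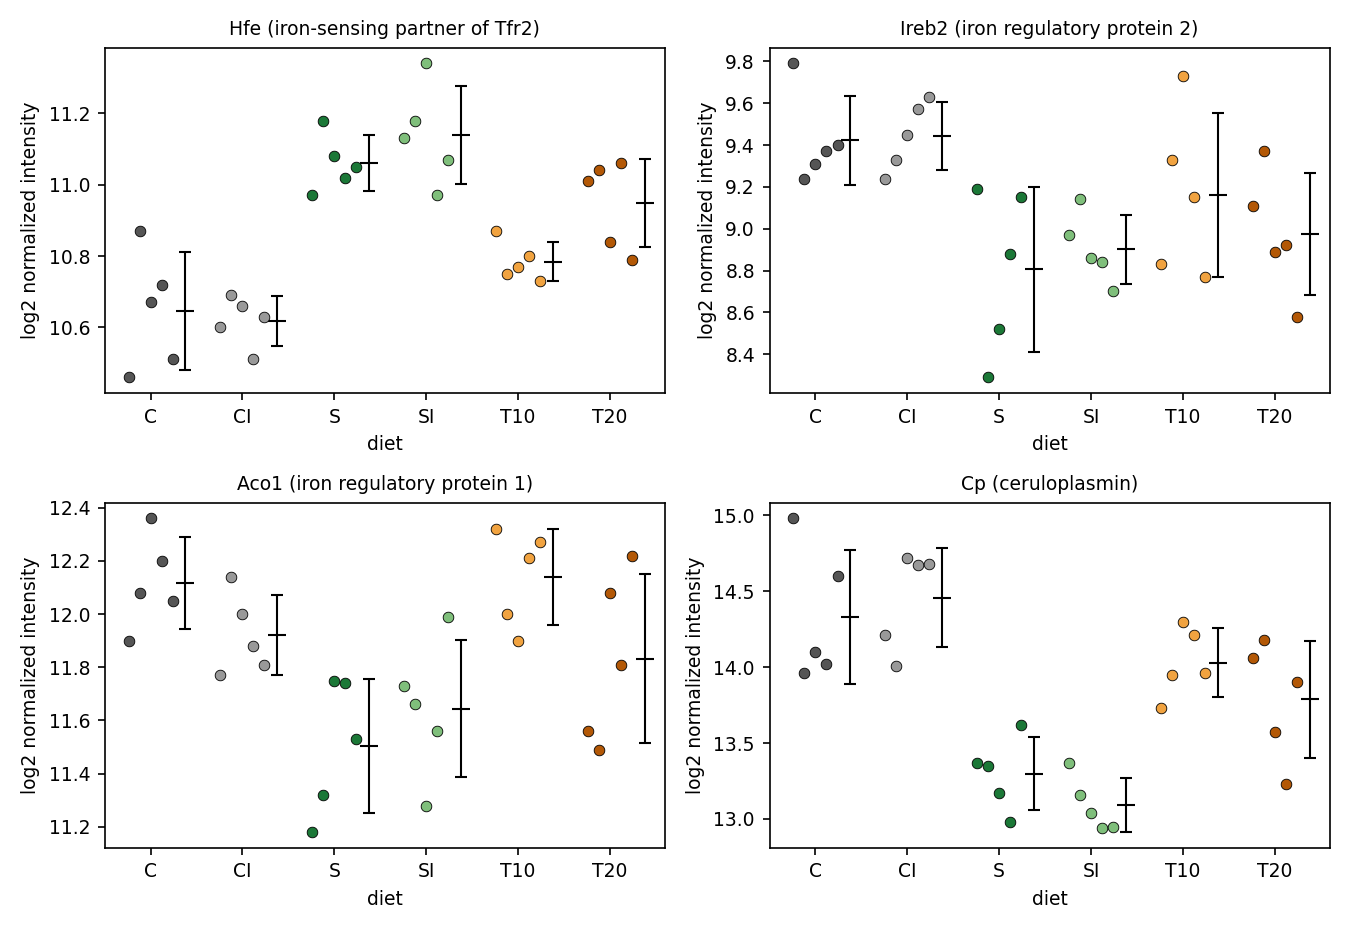
Log2 normalized intensity (y axis) by diet (x axis) of Hfe, Ireb2, Aco1 and Cp, 1 point per liver, with the mean and 1 SD (n = 5) beside each diet. For Hfe, Ireb2 and Cp the C and CI livers do not overlap the S and SI livers.

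Of 15 tested genes of iron uptake, storage and export, 5 changed with soy protein, 3 up and 2 down (median 0.06, against -0.03 over all probe sets). The share called over all probe sets was 20%, with 8.25% higher and 11.8% lower. Cp, ceruloplasmin, the plasma ferroxidase that loads iron onto transferrin, fell by 1.20 ± 0.13 (adjusted p = 2.66e-07), from 13.96 to 14.98 in C to 12.98 to 13.62 in S and 12.94 to 13.37 in SI. Slc39a8, a metal importer, fell by 0.27 ± 0.08 (0.0113). Steap3, the endosomal ferrireductase, rose by 0.33 ± 0.09 (0.0123), as did Slc11a2 and Slc40a1. Slc39a14, which takes up non-transferrin iron, was -0.04 ± 0.09 (0.789). Between T20 and SI, where 1.63% of all probe sets were higher in T20 and 1.87% lower, 2 of the list changed: Cp was 0.70 ± 0.19 higher in T20 (0.0357) and Steap3 was lower, at -0.55 ± 0.13 (0.0183). The Cp call was lost without any 1 of 6 arrays (up to 0.106) and the Steap3 call without SI replicate 5 or T20 replicate 1 (up to 0.06). In T20 against C the list's sole call was Slc11a2 (0.29 ± 0.08, adjusted p = 0.0298), lost without any 1 of 5 arrays (up to 0.0755). Over all probe sets 4.5% were called there.

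Of 15 genes of heme synthesis and breakdown, 6 changed with soy protein, 4 up and 2 down, with a median of 0.03 (8.25% of all probe sets rose and 11.8% fell). Cpox, coproporphyrinogen oxidase, rose by 0.41 ± 0.08 (adjusted p = 0.00061) and Fech, ferrochelatase, which inserts iron into heme, by 0.36 ± 0.07 (0.000983). Ppox, the enzyme between them in the pathway, fell by 0.47 ± 0.10 (0.00106), and Blvra, biliverdin reductase, rose by 0.32 ± 0.08 (0.00451). In T20 Fech was also higher than in C, by 0.37 ± 0.11 (0.0424), a call lost without any 1 of 9 arrays (up to 0.113). Of 12 genes of mitochondrial iron and iron-sulfur clusters, 2 fell and 0 rose. Nfs1, the cysteine desulfurase, fell by 0.28 ± 0.05 (0.000597) and the cochaperone Hscb by 0.19 ± 0.07 (0.0337). The Hscb call was lost without any 1 of 8 arrays (up to 0.0786). Of 8 NRF2 target genes limma called 0 with soy protein, against 20% of all probe sets. Of the 8, 0 had an unadjusted p under 0.05, against 6013 of all 18625 probe sets. In T20 against C 0 were called, against 4.5% of all probe sets. There 4 of the 8 had an unadjusted p under 0.05, against 3800 of the 18625. The list median there was -0.40, against -0.01 over all probe sets.

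Dividing cells are known for high Tfrc, and cell cycle genes were set beside it. Of 19 tested, 6 were lower in T20 than in C and 0 higher, against 2.74% and 1.76% of all probe sets, with a list median of -0.56 against -0.01. Top2a, Plk1, Aurka, Ccna2 and Mcm7 lost their calls without any 1 of 4, 5, 7, 8 and 8 arrays, and in a fit of the C and T20 arrays alone. Ccnb2, cyclin B2, fell by 1.02 ± 0.18 in T20 (adjusted p = 0.00139) and by 0.91 ± 0.18 in T10 (0.0136). The T10 call was lost without T10 replicate 4 (0.0708) and without T10 replicates 3 to 5 (0.417).

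Markers of other liver cells were set beside these results. Of 10 Kupffer cell and macrophage, 6 erythroid and 8 endothelial genes tested, 0 were called between soy protein and casein. Over all probe sets 20% were called. Of 10 hepatocyte markers 3 were called: Tat (-0.93 ± 0.32, adjusted p = 0.0422) and Ass1 (-0.33 ± 0.08, 0.00476) were lower and Cyp2e1 (0.31 ± 0.09, 0.0179) higher with soy protein. The Tat call was lost without any 1 of 14 arrays (up to 0.0977). Kupffer cell sums ran from 24257 to 47171 and erythroid sums from 27929 to 55986, overlapping between diets. Against C, T20 had 1 endothelial gene called, Lyve1 (0.35 ± 0.10, adjusted p = 0.0404, lost without any 1 of 7 arrays), and 1 stellate cell or pericyte gene, Rgs5 (0.76 ± 0.13, 0.00103). Over all probe sets 4.5% were called between T20 and C and 3.51% between T20 and SI. Against SI, T20 had the endothelial Fcgr2b (0.52 ± 0.12, 0.0152; lost without SI replicate 2 or 5 or T20 replicate 1, up to 0.0622) and Rgs5 (0.91 ± 0.13, 0.00024) called higher. Their part in the Hamp and Tfrc values was not tested.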

How the data were processed

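Liver RNA of 30 rats was measured on 1-colour Affymetrix arrays, 5 per diet. The authors deposited normalized values of linear intensity, which, per the labels and file headers, came from the SuperNORM service. The 57 control probe sets were left out, deposited intensity was floored at 16 and converted to log2, with no further scaling, and probe sets whose mean was under the 40th percentile (7.388 log2) were not tested, which left 18625. One limma (3.58.1, R 4.3.3) fit over all 6 diets with 24 residual degrees of freedom, trend and Benjamini-Hochberg adjustment over all probe sets gave the tests. Depth does not apply to arrays; 5 arrays a diet limit precision. Gene names come from the platform annotation (20832 probe sets with 1 symbol, 436 with several, 9831 with none; 20764 matched RefSeq gene records). A gene was represented by its brightest probe set. The fit was tested on simulated data.

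The genes and lists were chosen with earlier results of these data known. Named were the iron probe sets, up to 4 called genes per list and comparison, the 8 and 4 genes most and least like Hamp, the 3 of smallest p within diets, and 11 regulators by function. Alternatives covered scaling, filter, floor, variance trend, array weights, the replicate block and leaving out arrays. Over all probe sets, 22 of 75 correlations of deviations between same-numbered arrays were above 0.1, against 50 of 300 between different numbers. The numbers were not treated as pairs in the main fit, although some genes followed them and the replicate block changed some calls.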

Additional observations from a re-analysis of the deposited data

Results flagged for a closer look

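A single liver stood far from the other 4 of its diet (Dixon's test, gap over range above 0.71) in 8 of the 96 groups of the iron probe sets, and in 31 of the 438 groups over all named genes; chance flags about 1 in 20. Hamp in T10 replicate 4 was 8.41, above the other T10 livers. Hmox1 in T20 replicate 5 was 10.66, above the others, and that liver decided whether Hmox1 passed between T20 and C. The shared Ftl1 probe set was 14.78 in S replicate 5, and the shared Fth1 probe set was 15.45 in C replicate 4 and 15.67 in S replicate 1. Bmp6 was 8.74 in T10 replicate 3 on its brightest probe set and 6.62 in S replicate 4 on the second. Slc40a1 was 11.87 in T10 replicate 3 on its second probe set.

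Among the pathway genes, Smad7 was 9.43 in C replicate 3, Id4 12.85 in S replicate 1, Ireb2 9.79 in C replicate 1, Steap3 9.99 in T10 replicate 2, Slc11a2 10.15 and Cpox 12.30 in CI replicate 3, Slc39a14 12.02 in SI replicate 3, and Hjv 11.72 in T10 replicate 2. Orm1 was 14.93 in S replicate 3 and 13.58 in T10 replicate 1. Of the genes like Hamp, Hnrnpa1 was 9.26 in T20 replicate 4, Vnn1 9.58 in T20 replicate 5, Tmed8 8.36 in T10 replicate 2 and Oat 12.20 in S replicate 4. Drg1 was 7.95 in SI replicate 1 and 9.30 in T10 replicate 4, and Fgf20 6.62 in S replicate 1. Of cell cycle and marker genes, Mcm7 was 9.76 in T20 replicate 3, Top2a 7.64 in T10 replicate 4, Ass1 15.05 in T10 replicate 3, Cyp2e1 14.98 in SI replicate 3, and Lyve1 12.28 in CI replicate 3 and 11.95 in T10 replicate 3.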

How the results depend on the processing

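No difference changed sign while called, over 24954 single values under the alternatives. Of these, 24332 were unchanged, 125 newly passed and 497 no longer passed. Unchanged meant the same side of the threshold or, for Hamp, which carries no test, a shift smaller than its residual SD. Leaving out 1 array at a time gave 1997 to 2622 probe sets differing over the 6 diets, 3199 to 3874 between soy protein and casein, 0 to 5 for the isoflavone effect by protein (main 3), 27 to 69 for T10 against C (60), 389 to 1029 for T20 against C (839), 228 to 1026 for T20 against SI (653), and 0 for isoflavone and for the association with Hamp. Counts that moved by over 1.5 times were, for T10 against C, 27 without C replicate 3, 36 without C replicate 1 or T10 replicate 5, 32 without T10 replicate 2 and 30 without T10 replicate 4. For T20 against C they were 389 without C replicate 3 or T20 replicate 1, 516 without C replicate 5 and 421 without T20 replicate 2. For T20 against SI they were 228 without SI replicate 2, 432 without SI replicate 4, 397 without SI replicate 5, 268 and 382 without T20 replicates 1 and 2, and 1026 without SI replicate 3. The isoflavone effect by protein had 5 calls without C replicate 1, 1 without SI replicate 2, and 0 without C replicates 2 or 4, CI replicates 1, 3, 4 or 5, S replicates 2, 4 or 5, or SI replicates 1, 4 or 5. T10 against C gave 39 calls with equal median and spread, 94 with array weights, 27 without C replicate 3 and CI replicate 3 together, 11 without T10 replicates 3 to 5 and 34 in a fit of its own groups. T20 against C gave 383 without C and CI replicates 3 and 213 in its own groups, and T20 against SI 39 in its own groups, where fewer arrays estimate the spread. The isoflavone effect by protein gave 0 with the 60th percentile filter and without C and CI replicates 3, and 1 in its own groups. Higher and lower calls were 328 and 511 for T20 against C, 183 and 523 with median centring and 830 and 398 with equal median and spread; for T20 against SI they were 304 and 349, 144 and 649 with median centring and 309 and 487 with quantile normalization. Median centring moved the median of all probe sets to 0.108 in the isoflavone effect by protein. In pairs of arrays with the same replicate number, deviations from the diet mean had a median correlation of 0.046 (22 of 75 above 0.1, against 50 of 300 between different numbers), and 9 of 30 arrays correlated best with their own number. With the replicate block there were 2964 calls over the 6 diets, 4114 between soy protein and casein, 76 for T10 and 1120 for T20 against C, 970 for T20 against SI and 1 for the isoflavone effect by protein. Under the block Tfrc passed between T20 and SI on both probe sets, and between soy protein and casein on the dimmer. The Hamp association stayed at 0 calls in the 4 casein and soy protein diets, an alternative chosen after seeing the data.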
